A study of Homo sapiens with 4 samples.

Results

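The EGFR family was followed through 10 genes that were chosen by name, namely the receptors EGFR, ERBB2, and ERBB3, the ligands AREG, EREG, HBEGF, TGFA, NRG1, and BTC, and the feedback inhibitor ERRFI1. Each symbol matched a single entry of the count table, which lists 20372 genes in all. The RNA came from TPC1, an established line of human papillary thyroid carcinoma cells with the CCDC6-RET fusion, grown in DMEM with 10% FBS. All 4 libraries were from cells exposed to BLU6864, a selective inhibitor of the RET kinase, with 2 libraries after 6 h and 2 after 24 h. The sample labels give the dose as 100 µM, whereas the methods give 100 nM. The 24 h libraries are marked as a re-analysis and the 6 h libraries are not, so whatever this mark stands for cannot be told apart from time. Vehicle-treated cells were not analysed here, so the drug and the time in culture cannot be told apart. No source states whether the 2 libraries of a time point came from separate cultures, and the p-values measure only the spread between these libraries, which may be technical.

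The EGFR family signals when a ligand draws receptors into pairs, after which their kinase domains phosphorylate the tails and recruit adaptors that lead to RAS, ERK, and PI3K. EGFR binds AREG, EREG, HBEGF, TGFA, and BTC. ERBB2 has no known ligand and acts as the preferred partner, and ERBB3, which has little kinase activity of its own, binds NRG1. The ligands are made as membrane-anchored precursors that metalloproteases release. ERRFI1, also known as MIG6, binds the active EGFR kinase and switches it off, and its gene is induced by growth factor signaling. Activation of EGFR family receptors is a known route by which thyroid and other carcinomas keep ERK active during kinase inhibitor treatment.

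Total counts ranged from 23917056 to 27457040 per library. Over the 12876 genes tested, libraries of the same time had rank correlations of 0.998 or more, and libraries of different times 0.941 or less. The thyroid transcription factor gene PAX8 was abundant, with 19124 to 22978 raw counts, but NKX2-1 and TSHR had 0 counts in every library. Markers also moved between the times, with log2 fold changes of -1.09 for TG and 0.84 for FOXE1 among the thyroid genes and of -1.59 for KRT19 and 0.84 for KRT7 among the keratins. Of the epithelial markers, KRT8 had 1720 to 1811 raw counts and KRT18 856 to 1185, whereas CDH1 had at most 8 counts and EPCAM at most 11. Leukocyte markers summed to 63 and 67 counts at 6 h and to 99 and 104 at 24 h. For 6 of the 8, PTPRC among them, no library had more than 5 counts. Most of the sum came from CD14, which rose from 47 and 41 to 85 and 91, while FCER1G had 13 and 19, then 7 and 11. Stromal markers summed to 350 and 419 counts at 6 h and to 194 and 207 at 24 h, mostly from PDGFRB, which fell, whereas LUM of the same list rose from 39 and 40 to 71 and 66. Endothelial markers summed to at most 24 counts in a library. The part of these markers in the results was not tested. In RNA from a whole culture, fewer cells of a type and less RNA per cell cannot be told apart.

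Changes were tested with edgeR's quasi-likelihood test over all 12876 genes with enough counts. A gene was called when its log2 fold change, 24 h against 6 h, was above 0.5 or below -0.5 with an unadjusted P under 0.01. These are the cutoffs of the methods, applied here in both directions. Of the 10 members, 5 were called higher at 24 h (EGFR, ERBB2, TGFA, NRG1, and BTC) and 3 were called lower (ERBB3, EREG, and HBEGF). ERRFI1 was tested and not called, and AREG had too few counts to be tested. Among all genes tested, 17.4% were called higher and 17.7% lower, or 35.1% in either direction. The median log2 fold change was 0.51 over the 9 members tested and 0.0029 over all genes tested. Because AREG did not pass the filter on low counts, these numbers describe 9 of the 10 genes. In normalized counts, both 24 h libraries lay above both 6 h libraries for the 5 members called higher, as they did for 41.0% of all genes tested. They lay below for the 3 called lower and for ERRFI1, as they did for 40.8% of all genes tested, and 81.8% showed no overlap in either direction.

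**Figure D1:**
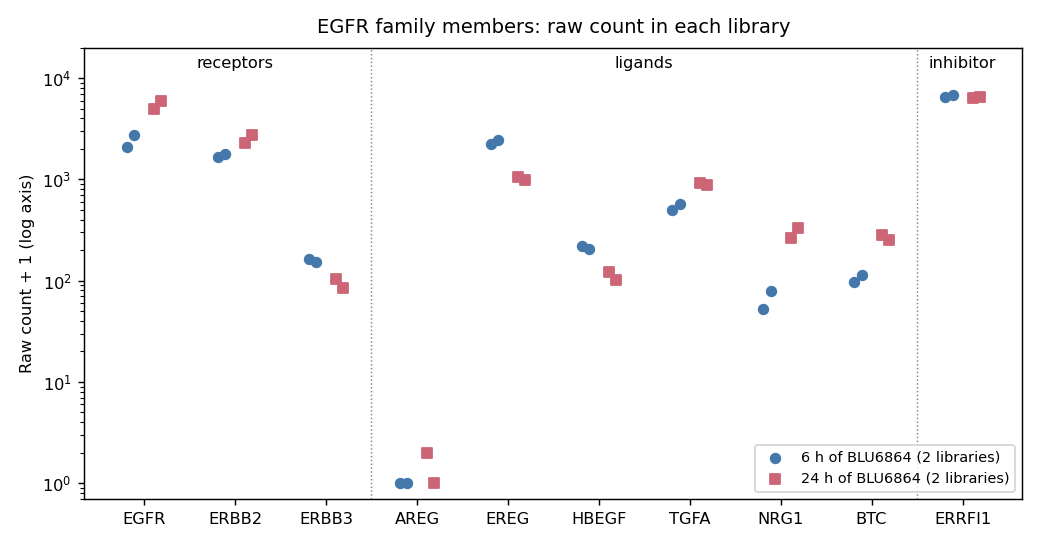
Raw count plus 1 of each EGFR family gene on a log axis, with 1 point per library, circles for 6 h and squares for 24 h of BLU6864. EGFR, ERBB2, TGFA, NRG1, and BTC lie higher in both 24 h libraries, ERBB3, EREG, and HBEGF lie lower, and AREG stays at 0 or 1 count.

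EGFR (ENSG00000146648, chr7:55086714-55324313 of hg19), the receptor for most of the ligands measured, roughly doubled. It had 2080 and 2738 raw counts at 6 h and 4896 and 5987 at 24 h. Both 24 h libraries lay far above both 6 h libraries, although the libraries of a time point also differed from each other. Scaled for library size, the normalized count was 2436 ± 270 (SD, n = 2) at 6 h and 5352 ± 671 at 24 h. The log2 fold change was 1.13 (standard error 0.0856, 95% interval 0.96 to 1.31), with an adjusted P of 6.52e-12, and 94.2% of all genes tested had a lower log2 fold change. With each library left out in turn, the log2 fold change of EGFR stayed between 1.01 and 1.26.

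The upstream sequences of EGFR are shown because its transcript had the largest rise among the receptors. RefSeq (GRCh38.p14) gives 2 start sites with a window, and the 250 bases before each are printed 5′ to 3′ on the plus strand, chr7:55018767-55019016 for the first and chr7:55109589-55109838 for the downstream start. Capitals mark matches, on either strand, to any of 4 motifs searched, the AP-1 site TGANTCA, the CRE core TGACG, the ETS core CCGGAA, and the SRF CArG box.
EGFR first start: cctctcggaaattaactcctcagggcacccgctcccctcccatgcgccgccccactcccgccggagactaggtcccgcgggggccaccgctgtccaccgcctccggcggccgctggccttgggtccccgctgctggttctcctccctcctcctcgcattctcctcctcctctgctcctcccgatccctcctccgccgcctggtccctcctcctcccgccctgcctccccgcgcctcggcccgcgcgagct
EGFR downstream start: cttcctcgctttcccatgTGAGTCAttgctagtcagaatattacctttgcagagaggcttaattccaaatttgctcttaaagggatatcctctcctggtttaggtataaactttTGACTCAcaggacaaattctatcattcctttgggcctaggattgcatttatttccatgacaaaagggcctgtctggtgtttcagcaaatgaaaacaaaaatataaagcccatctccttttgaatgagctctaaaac
The first window held none of the 4 motifs, whereas the downstream window held 2 AP-1 sites, which begin 232 and 136 bases before the start. No printed match overlaps another motif. Of 35116 promoter windows of the same length, 6.57% held an AP-1 site, 21.2% a CRE core, 14.5% an ETS core, and 1.16% a CArG box. These matches describe the sequence and were not tested for binding, and the counts do not tell which start was used.

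ERBB2 (ENSG00000141736, chr17:37844167-37886679 of hg19), the partner receptor, rose by less. Its raw counts were 1644 and 1760 at 6 h and 2273 and 2742 at 24 h. The time points did not overlap. The normalized count went from 1732 ± 61.0 (SD, n = 2) to 2466 ± 286, a log2 fold change of 0.51 (standard error 0.0776, 95% interval 0.35 to 0.67, adjusted P = 2.22e-06). This value sits at the fold change cutoff. It was 0.47 when libraries were scaled by total count alone, 0.47 without 6 h replicate 2, and 0.39 without 24 h replicate 2, below the cutoff in each case, with an unadjusted P of at most 6.14e-05. ERBB2 overlaps PGAP3 and MIEN1 in the count table, and in GENCODE v44 both lie on the opposite strand. PGAP3 had 329 and 371 raw counts at 6 h and 568 and 568 at 24 h, and MIEN1 had 890 and 1034, then 841 and 941. The strand setting of the counting is not given in the sources used here, so reads of these neighbours cannot be told apart from those of ERBB2 where they overlap. GENCODE v44 also lists a gene with overlapping exons for EGFR and ERRFI1, on the opposite strand, and for NRG1, on the same strand. No entry of the count table overlaps these 3 members, and whether reads of such genes were added to their counts was not tested.

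ERBB3 (ENSG00000065361, chr12:56473641-56497289 of hg19), the receptor for NRG1, moved the other way. It was the least abundant of the 3 receptors, with 163 and 151 raw counts at 6 h and 104 and 84 at 24 h. Both 24 h libraries were below both 6 h libraries. The normalized count fell from 160 ± 22.0 (SD, n = 2) to 92.7 ± 15.5, a log2 fold change of -0.79 (standard error 0.163, 95% interval -1.12 to -0.45, adjusted P = 0.000142). The smaller count gave a wider interval than for EGFR or ERBB2. The only gene that overlaps ERBB3 in the table had 0 counts in every library. The remaining receptor of the family, ERBB4, had 1 and 0 raw counts at 6 h and 3 and 0 at 24 h, too few to be tested.

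Among the ligands, EREG (epiregulin; ENSG00000124882, chr4:75230860-75254468 of hg19) had the most reads at 6 h and fell most. It had 2240 and 2456 raw counts at 6 h and 1053 and 975 at 24 h. The 2 libraries of each time point were close to each other and the time points were far apart. Its normalized count fell from 2387 ± 43.7 (SD, n = 2) to 999 ± 70.9, a log2 fold change of -1.26 (standard error 0.0739, 95% interval -1.41 to -1.10, adjusted P = 3.51e-14). EREG was 2.39-fold higher at 6 h, and only 6.38% of the genes tested had a lower log2 fold change.

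HBEGF (heparin-binding EGF-like growth factor; ENSG00000113070, chr5:139712428-139726216 of hg19) fell as well, from a lower level. It had 220 and 204 raw counts at 6 h and 122 and 101 at 24 h. The time points did not overlap. The normalized count was 217 ± 29.5 (SD, n = 2) at 6 h and 110 ± 16.4 at 24 h, and the log2 fold change was -0.97 (standard error 0.149, 95% interval -1.28 to -0.67, adjusted P = 2.51e-06).

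BTC (betacellulin; ENSG00000174808, chr4:75669969-75719896 of hg19), which binds EGFR and ERBB4, rose although it lies in the same cluster of ligand genes as EREG. It had 96 and 113 raw counts at 6 h and 280 and 250 at 24 h. Both 24 h libraries were over both 6 h libraries by a wide margin. The normalized count went from 106 ± 3.38 (SD, n = 2) to 261 ± 25.2, a log2 fold change of 1.30 (standard error 0.138, 95% interval 1.01 to 1.58, adjusted P = 5.38e-09). It was therefore 2.46-fold higher at 24 h.

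The 250 bases before the RefSeq start (GRCh38.p14) are printed for the 2 ligand members that fell, EREG (chr4:74364895-74365144, plus strand) and HBEGF (chr5:140346604-140346853, minus strand). Beside them are those of BTC (chr4:74794524-74794773, minus strand), a member that rose and lies in the same cluster of ligand genes as EREG. Each is read 5′ to 3′ on the strand of the gene, and capitals mark matches to the same 4 motifs.
EREG: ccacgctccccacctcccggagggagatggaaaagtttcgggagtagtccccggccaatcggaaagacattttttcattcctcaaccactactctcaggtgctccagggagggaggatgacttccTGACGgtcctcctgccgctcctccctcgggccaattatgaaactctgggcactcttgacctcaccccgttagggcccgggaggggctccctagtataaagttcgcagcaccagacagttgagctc
HBEGF: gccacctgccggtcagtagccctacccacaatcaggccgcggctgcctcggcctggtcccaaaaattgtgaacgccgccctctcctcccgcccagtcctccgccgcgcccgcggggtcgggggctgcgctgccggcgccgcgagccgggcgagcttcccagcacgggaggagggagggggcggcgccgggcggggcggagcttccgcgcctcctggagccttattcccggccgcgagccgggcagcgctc
BTC: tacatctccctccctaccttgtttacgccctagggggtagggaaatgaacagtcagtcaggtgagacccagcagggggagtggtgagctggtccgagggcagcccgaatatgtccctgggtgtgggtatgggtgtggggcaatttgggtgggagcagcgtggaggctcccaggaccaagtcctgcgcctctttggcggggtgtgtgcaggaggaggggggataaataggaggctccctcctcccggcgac
EREG held a single CRE core, 125 bases before the start, and HBEGF and BTC held none of the 4 motifs in this window. With no match in HBEGF, the windows of the 2 ligand members that fell could not share a motif, so nothing is read from this. Of the other members with a window, TGFA had a CRE core before its first start and an ETS core before its second, AREG had an ETS core and 2 CRE cores that overlap on opposite strands, ERBB2 had an AP-1 site and 2 ETS cores, and ERRFI1 had none of these motifs.

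TGFA (transforming growth factor alpha; ENSG00000163235, chr2:70674412-70781325 of hg19), a ligand of EGFR alone, rose. It had 501 and 574 raw counts at 6 h and 927 and 874 at 24 h, with no overlap between the time points. The normalized count went from 546 ± 6.97 (SD, n = 2) to 887 ± 51.6, a log2 fold change of 0.70 (standard error 0.0856, 95% interval 0.52 to 0.88, adjusted P = 6.55e-08).

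NRG1 (neuregulin 1; ENSG00000157168, chr8:31496902-32622548 of hg19), the ligand of ERBB3 and ERBB4, had the largest change of the family. It had 52 and 78 raw counts at 6 h and 265 and 330 at 24 h. The lower 24 h library held more than triple the reads of the higher 6 h library. The normalized count went from 65.5 ± 13.2 (SD, n = 2) to 293 ± 40.4, a log2 fold change of 2.15 (standard error 0.159, 95% interval 1.82 to 2.48, adjusted P = 4.49e-12). NRG1 was 4.43-fold higher at 24 h, and 98.5% of the genes tested had a lower log2 fold change. It ranged from 1.97 to 2.38 with each library left out in turn. Gene counts do not separate the 26 protein-coding transcripts that GENCODE v44 lists for NRG1, which encode ligands with different domains.

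AREG (amphiregulin; ENSG00000109321, chr4:75310851-75320726 of hg19) had 0 and 0 raw counts at 6 h and 1 and 0 at 24 h. The table lists a second entry, AREGB (chromosome 4), with 0 and 1 counts at 6 h and 3 and 1 at 24 h, while RefSeq on GRCh38.p14 gives AREGB as a synonym of AREG and holds 0 separate entries for it. Reads from 2 near-identical copies can be left out of gene counts, and whether this happened here was not tested, so the level of AREG is uncertain. A count of 0 allows up to 3 counts in a library, for counting error only. No fold change is given for AREG.

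ERRFI1 (ENSG00000116285, chr1:8064464-8086368 of hg19), the inhibitor of EGFR, had the most reads of the 10 genes at both time points. It had 6536 and 6788 raw counts at 6 h and 6417 and 6517 at 24 h. After scaling, the normalized counts were 7056 and 6512 at 6 h and 6393 and 6342 at 24 h, so that the time points were close but did not overlap. The log2 fold change was -0.09 (standard error 0.0729, adjusted P = 0.277). Its 95% interval of -0.24 to 0.06 leaves out a change as large as the cutoff in either direction.

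**Figure D2:**
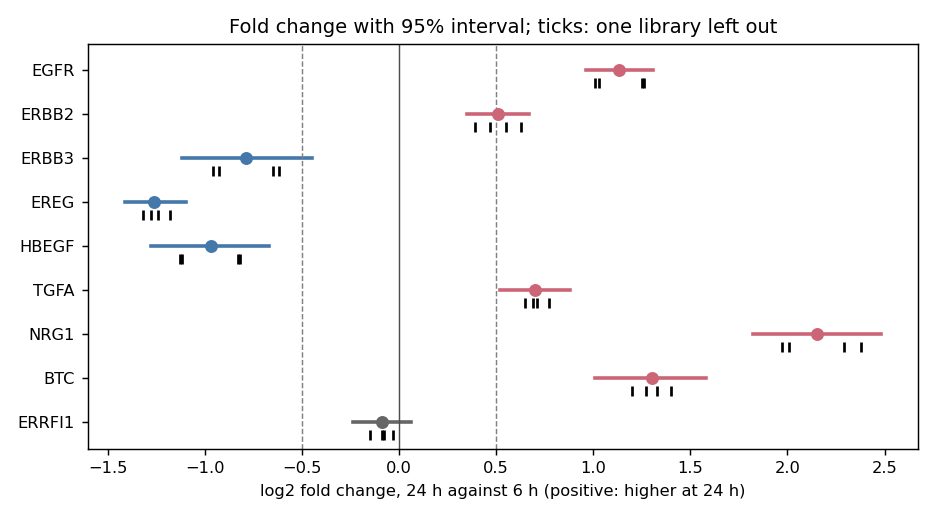
Log2 fold change of the 9 EGFR family genes tested, 24 h against 6 h of BLU6864. Points are edgeR estimates, bars their 95% intervals, black ticks the 4 values with a library left out, and dashed lines the cutoffs at 0.5 and -0.5. NRG1 lies farthest right at 2.15 and EREG farthest left at -1.26, ERBB2 sits on the cutoff at 0.51, and the interval of ERRFI1 includes 0.

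To compare genes with each other, normalized counts were divided by the length of the longest protein-coding transcript in GENCODE v44. On this scale EREG was the leading ligand at 6 h, with 517 ± 9.48 normalized counts per kb (SD, n = 2). TGFA followed with 133 ± 1.69, HBEGF with 91.9 ± 12.5, BTC with 40.0 ± 1.27, and NRG1 with 5.23 ± 1.06. At 24 h the levels per kb were 216 ± 15.4 for EREG and 215 ± 12.5 for TGFA, which did not differ beyond their spread. BTC, at 98.4 ± 9.51 per kb, stood above HBEGF, at 46.6 ± 6.98, which reverses their order at 6 h. NRG1 remained the lowest of these 5 at 23.4 ± 3.23 per kb. That rank at 24 h depends on dividing by length. Without the division, the normalized count of NRG1 was 293 ± 40.4, beside 261 ± 25.2 for BTC and 110 ± 16.4 for HBEGF. The order of the 5 ligand means at each time was the same when coding length was used in place of transcript length.

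The share of the summed ligand level per kb held by EREG was 65.7% ± 0.298 (SD, n = 2) at 6 h and 36.0% ± 0.0544 at 24 h. The share of TGFA was 16.9% ± 0.600 and then 35.9% ± 0.405, and that of BTC 5.08% ± 0.278 and then 16.4% ± 0.446. HBEGF held 11.7% ± 1.33 at 6 h and 7.74% ± 0.623 at 24 h, and NRG1 held 0.667% ± 0.149 and then 3.92% ± 0.809. With coding length, the share of EREG was 73.8% at 6 h and 43.3% at 24 h. On both scales, EREG held most of the summed level of the 6 ligand members at 6 h, and at 24 h the larger part came from the other members. Further ligands of the family with counts, such as EGF and NRG2, were not part of these sums.

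Among the receptors, the level per kb of transcript was 361 ± 12.7 (SD, n = 2) for ERBB2, 246 ± 27.2 for EGFR, and 28.6 ± 3.92 for ERBB3 at 6 h. At 24 h, EGFR had 540 ± 67.7, ERBB2 515 ± 59.6, and ERBB3 16.5 ± 2.75 per kb. Within each 24 h library EGFR lay slightly above ERBB2, at 492 against 473 in replicate 1 and 588 against 557 in replicate 2. At 6 h, the order of EGFR and ERBB2 depends on the length used. Per kb of coding length, EGFR had means of 671 at 6 h and 1474 at 24 h, above the 460 and 655 of ERBB2. ERBB3 was the lowest of the 3 on both scales.

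Receptors and ligands were also compared as sums per kb of transcript. The receptor sum was 636 ± 10.6 (SD, n = 2) at 6 h and 1072 ± 125 at 24 h, and the ligand sum was 787 ± 18.0 and then 601 ± 41.7. The log2 ratio of ligand to receptor was 0.35 and 0.27 at 6 h and -0.64 and -1.02 at 24 h. The time points did not overlap, and the mean log2 ratio was lower at 24 h by a difference of -1.14. A two-sided exact permutation test gave P = 0.333, which is the smallest that 2 libraries against 2 can give. Whether the ligand sum lay above or below the receptor sum depended on the length used. With coding length the log2 ratios were 2.51 and 2.38 at 6 h and 1.27 and 0.90 at 24 h, above 0 at both times. With raw counts they were -0.32 and -0.44, then -1.46 and -1.80, below 0 at both. The ratio was lower at 24 h on each of these scales. Without EREG, the ratios were -1.19 and -1.29 at 6 h and -1.29 and -1.67 at 24 h, a difference of only -0.24. The size of the shift thus depends on whether EREG is counted, but it also holds the rise of the receptors. From 6 h to 24 h, the receptor sum changed by a factor of 1.69 and the ligand sum by 0.763. Without ERBB2 the difference was -1.41, and a ratio without EGFR was not computed.

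**Figure D3:**
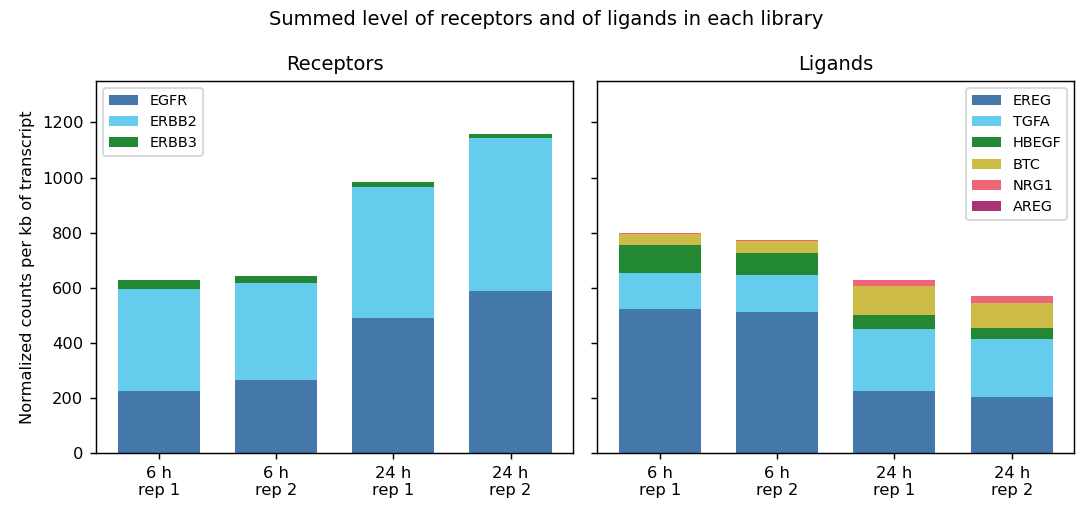
Summed level of the 3 receptors (left) and the 6 ligands (right) in each library, as normalized counts per kb of the longest protein-coding transcript, with bars starting at 0 and colored by gene. The receptor bars are taller at 24 h, mainly through EGFR and ERBB2, and the ligand bars are shorter, with a smaller EREG part and larger TGFA and BTC parts.

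The wider pathway was examined in 6 lists with 70 genes, of which 64 were tested, 14 (21.9%) were called higher, and 7 (10.9%) were called lower. These shares, and the counts in each list, stand beside 17.4% and 17.7% of all genes tested. Their median log2 fold change was 0.11. Of the other ligands, EGF, the founding member of the family, fell from 379 and 416 raw counts at 6 h to 219 and 246 at 24 h, and its log2 fold change was -0.82 (standard error 0.108, adjusted P = 2.27e-07). NRG2 and NRG4 were tested and not called, at log2 fold changes of -0.06 and 0.46. EPGN had at most 5 counts and NRG3 had 0 counts in each library.

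Of the 9 genes for ligand release, 2 were called higher and 3 lower, with a median log2 fold change of 0.36. ADAM17, the main sheddase of TGFA, HBEGF, EREG, and AREG, fell from 6318 and 6782 raw counts to 3678 and 3627, a log2 fold change of -0.89 (standard error 0.0716, adjusted P = 2.47e-11). ADAM19 and ADAM12, related metalloproteases, had log2 fold changes of -2.09 and -1.47. ADAM9 rose with a log2 fold change of 0.66. ADAM10, the main sheddase of BTC and EGF, had a log2 fold change of 0.43, under the cutoff, with an adjusted P of 3.34e-05. RHBDL2, a rhomboid protease, was called higher with a log2 fold change of 1.38 but had only 15 and 12 raw counts at 6 h and 33 and 40 at 24 h. Its unadjusted P was 0.0137 with DESeq2 and 0.0129 without 6 h replicate 2, so that call was lost in both.

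Of the 11 genes tested from the list of negative regulators of EGF family receptors, 3 were called higher and 0 lower, with a median of 0.07. The 3 were UBASH3B, a CBL-binding phosphatase (log2 fold change 1.64, standard error 0.0722), PTPRJ, a receptor-type tyrosine phosphatase (1.08, standard error 0.0720), and CBLB, a ubiquitin ligase of activated receptors (0.94, standard error 0.0952). CBL itself was not called, at -0.16. Whether each listed gene, UBASH3B among them, restrains these receptors in TPC1 cells was not tested. At an adjusted P under 0.05 with no cutoff on the fold change, 5 were higher and 2 lower, beside 33.0% and 32.6% of all genes tested.

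Adaptors and proximal effectors showed 3 higher and 2 lower of 17 tested, with a median of 0.07. SHC1, PLCG1, and PIK3CB rose with log2 fold changes of 0.64, 0.61, and 0.58, the last of which was 0.48 without 6 h replicate 2. EPS8, an EGFR substrate that acts on actin, and GAB2, a docking protein, fell with log2 fold changes of -1.47 and -0.95. GRB2, the adaptor that links the receptors to RAS, was not called, at -0.14. In the endocytosis and sorting list, 1 of 12 genes was called, AP2B1, a subunit of the clathrin adaptor AP-2, at 0.56.

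Of 12 genes known as ERK targets, 5 were called higher and 1 lower, with a median of 0.35. EPHA4, SPRY2, FOSL1, EPHA2, and CCND1 had log2 fold changes of 2.52, 1.46, 1.02, 0.96, and 0.73. PHLDA1 fell, with a log2 fold change of -0.71. DUSP6, a phosphatase that acts on ERK, had -0.49 and lay just inside the cutoff, and the number of lower genes was 3 without 6 h replicate 2 and 3 without 24 h replicate 1.

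**Figure D4:**
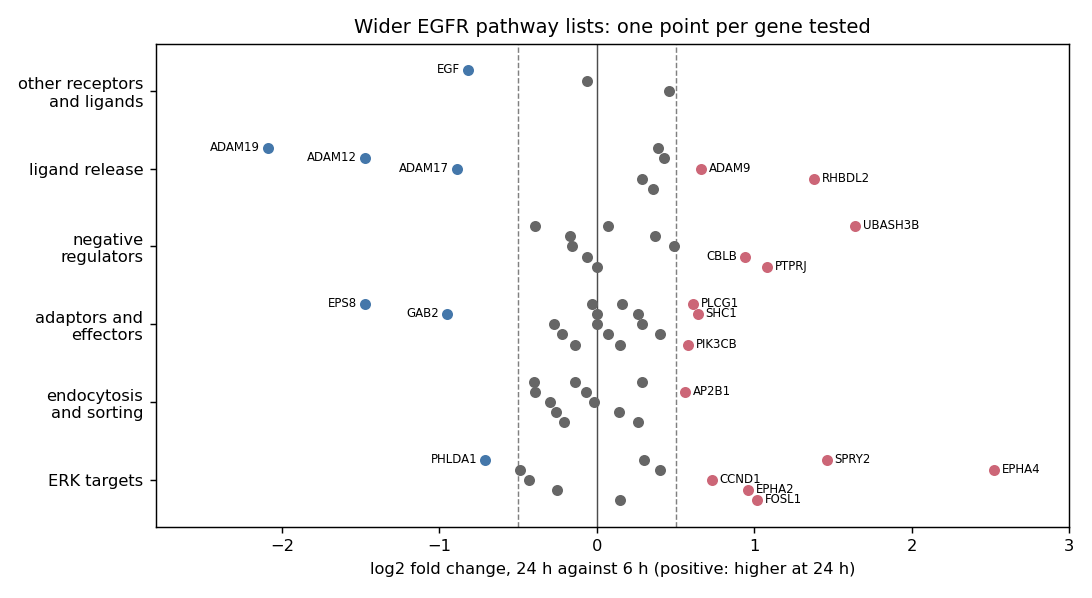
Log2 fold change, 24 h against 6 h, of the 64 genes tested in the 6 wider pathway lists, with 1 point per gene and vertical spread within a list only to separate points. Red points were called higher, blue points lower, and gray points were not called, with dashed lines at the cutoffs of 0.5 and -0.5. ADAM19 lies farthest left at -2.09 and EPHA4 farthest right at 2.52.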

How the data were processed

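RNA-seq of TPC1 cells after 6 h or 24 h of BLU6864 was analysed from a deposited gene table. Per the labels, reads of 50 bp were aligned with STAR 2.3 to hg19, and the submitters used DESeq2, whereas the paper's methods name another STAR release and paired reads. The counting program, its strand setting, and the annotation are not given in the sources used here. The authors deposited raw counts per gene, which were tested here. They also deposited a signal, the count divided by a size factor, with its mean, and their own comparison as log2 fold changes with standard errors, a Wald score, and p-values. None of these was used. Gene positions are those of the table. Only 3.94% of 19457 genes start within 1000 bp of their GENCODE v44 position, so hg19 and hg38 positions were kept apart.

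The main test was run in edgeR 4.0.16 (R 4.3.3) with filterByExpr, TMM scaling, the quasi-likelihood test with time as factor, and Benjamini-Hochberg adjustment over 12876 genes. For normalized counts, each library was scaled by its TMM-corrected size over the mean size, and standard errors come from the F statistic. Intervals at the 95% level, floors of 3 counts, and p-values cover these libraries only. DESeq2 1.42.0 was an alternative. The procedure was tested on simulated data, in which a much smaller share of genes changed than was called here. Promoter windows are from RefSeq. A window was matched for 8 of the 10 genes, and sequence of NRG1 and ERBB3 is not shown. Transcript and coding lengths are the longest in GENCODE v44. Plots used matplotlib 3.10.9.

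The members and gene lists were chosen with earlier results of these data known. All 10 members are named. In each wider list, the genes past both cutoffs are named, up to 6 by size of change, and other genes of the lists were named after their values were seen. Alternatives were DESeq2, scaling by upper quartile or by library size alone, a minimum of 10 counts per library or no filter, a block for replicate number, calls at an adjusted P under 0.05 with no fold cutoff, each library left out, raw counts in place of levels per kb, and ratios without EREG or ERBB2. Coding length was added after the data were seen.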

Additional observations from a re-analysis of the deposited data

How the results depend on the processing

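Of 509 values under the alternatives, 484 were kept. Kept meant the same direction and call for fold changes, within 1.5 times the reported count for counts, and within its SD for the ratio. Among fold changes and ratios, 0 changed direction, whereas a count has no direction to change. The 509 include ratios under the other scalings, which were carried over from the main value and could not differ. ERBB2 lost the fold change cutoff as given above, leaving 4 members higher with library size alone and without 6 h replicate 2 or 24 h replicate 2. The other 7 called members kept their call under every alternative run. With an adjusted P under 0.05 and no fold cutoff, 4247 genes of the table were higher and 4196 lower, and 27 and 19 of the wider lists, while the members stayed at 5 and 3. DESeq2 called 5 members higher and 3 lower. The difference between times in the log2 ratio of ligand to receptor was -0.24 without EREG and -1.41 without ERBB2, and ranged from -1.33 to -0.95 with each library left out. It was -1.36 with coding length. A scaling factor cancels in this ratio, so the other scalings give the same value, and filters and the block do not apply. Leaving a library out gives a time point 1 library, which is assumed to vary like the others.

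Replicate numbers 1 and 2 occur at both times, but nothing states that they pair libraries, and the deviations of same-numbered libraries had a correlation of 0.0757 across genes. With the replicate number as a block, 5 members were higher and 3 lower, as without it, and 2283 and 2313 of all genes.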

Other observations

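The ligand genes EREG, AREG, and BTC lie in order on chromosome 4 of hg19, and 415501 bases separate the end of EREG from the start of BTC. EREG, at the one side, fell with a log2 fold change of -1.26, and BTC, at the other, rose with 1.30. Of the entries between them, AREG and AREGB had at most 3 raw counts in any library, and EPGN, on the far side of EREG, had at most 5.

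The changes of NRG1 and its receptor ERBB3 ran in opposite directions, at 2.15 and -0.79. EGFR rose, at 1.13, and the members that bind it were divided. TGFA and BTC rose, at 0.70 and 1.30, whereas EREG and HBEGF fell, at -1.26 and -0.97. With 4 libraries in 2 groups, no relation between these genes could be tested.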
